A study of Homo sapiens with 24 samples.

Results

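The 30 genes described here encode the enzymes that make cholesterol and fatty acids, together with the factors that control and transport them, as measured in cell lines of diffuse large B-cell lymphoma (DLBCL) after silencing of the forkhead transcription factor FOXP1. They were taken by name from a list of known pathway genes, and all 30 were present among the 30142 genes of the array. The list holds 7 genes of the early mevalonate steps, 11 genes from squalene to cholesterol, 4 regulators or transporters and 8 genes of fatty acid synthesis and desaturation. A gene was represented by its brightest probe, and 16 of the 30 had several probes.

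The mevalonate pathway turns acetyl-CoA into isoprenoids and then squalene, and a series of further enzymes closes and trims the sterol ring to give cholesterol. Fatty acid synthesis starts from the same acetyl-CoA. Both routes are controlled by the sterol regulatory element-binding proteins, which are held in the endoplasmic reticulum when sterols are plentiful and released to switch on the genes of the pathway when sterols run short, and dividing lymphocytes draw on both routes to build membranes.

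DB and K422 are germinal center B-cell-like (GCB) DLBCL lines, and HBL-1 and OCI-Ly3 are activated B-cell-like (ABC) DLBCL lines. Cells of each line were electroporated with the FOXP1-targeting Stealth siRNA siFOXP1_308 or siFOXP1_309, or with a Stealth low-GC negative control duplex (siCtrl), and harvested after 48 h in 3 independent experiments, so that 24 2-color arrays each set a silenced culture against a control culture of the same line. Silenced RNA carried Cy3 and control RNA carried Cy5 on all 24 arrays, and a dye effect of a probe and an effect of silencing cannot be told apart within a line. Each subtype is represented by 2 established lines, silencing was transient and partial, and untransfected cells were not among the groups compared here. Values are log2 ratios of siFOXP1 over siCtrl, each line is summarized by the mean and SD over 6 arrays, and genes were tested with limma, adjusted over all genes by Benjamini-Hochberg. The word called is used for an adjusted p under 0.05 together with a log2 ratio of at least 0.5 in size, which is a 1.41-fold change.

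The targeted FOXP1 transcript was lower on 6 of 6 arrays in each of the 4 lines, with mean log2 ratios between -2.00 and -1.34. All 7 B-cell markers examined were well above background in the control channel of every line. Of markers of other cells, 3 of 5 T-cell markers were so in K422 (CD3D, CD3E and CD3G) and 0 to 2 elsewhere, 1 or 2 of 5 myeloid markers in each line (CSF1R in all 4, with CD14 in K422) and 1 or 2 of 5 epithelial or stromal markers (KRT18 in all 4), while CD163 and FCGR3A were on no array. On silencing, 4 of 7 B-cell markers were called higher in HBL-1, with a median log2 ratio of 0.56, and 2 of 5 myeloid markers were called lower in K422, and the part of either in the values of the members was not tested. The 2 scanning sessions held 1 line of each subtype, DB with OCI-Ly3 and HBL-1 with K422. All 30 members were well above background in both channels on all 24 arrays and none was saturated. ACAT2 was measured on 23 arrays, as its spot on the DB siFOXP1_308 array of replicate 1 was an outlier and was left out.

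Promoter sequence is shown for the 3 members that were higher in at least 3 lines, MVD, TM7SF2 and SREBF2, and for the sterol carrier STARD4, one of 4 members that were lower in at least 3 lines, because the results turn on these genes. Each run is the 150 bases before the transcription start in the RefSeq annotation of GRCh38.p14, read on the gene's strand from 5′ to 3′. Capitals mark matches, on either strand, to the core of the sterol regulatory element TCACNCCAC, the E-box CACGTG or the NF-Y box CCAAT, which reads ATTGG on the other strand.
MVD, chr16:88663092-88663241, minus strand: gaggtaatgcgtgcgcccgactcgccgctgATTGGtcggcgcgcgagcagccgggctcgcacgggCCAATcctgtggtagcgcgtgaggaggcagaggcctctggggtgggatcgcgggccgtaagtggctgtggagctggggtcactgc
TM7SF2, chr11:65111722-65111871, plus strand: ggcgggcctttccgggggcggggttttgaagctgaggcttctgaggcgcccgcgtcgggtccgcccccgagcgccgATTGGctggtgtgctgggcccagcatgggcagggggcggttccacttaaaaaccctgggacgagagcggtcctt
SREBF2, chr22:41832955-41833104, plus strand: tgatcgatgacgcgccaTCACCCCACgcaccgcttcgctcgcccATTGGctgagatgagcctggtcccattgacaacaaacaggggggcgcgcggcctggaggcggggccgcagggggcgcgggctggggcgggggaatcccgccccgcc
STARD4, chr5:111512536-111512685, minus strand: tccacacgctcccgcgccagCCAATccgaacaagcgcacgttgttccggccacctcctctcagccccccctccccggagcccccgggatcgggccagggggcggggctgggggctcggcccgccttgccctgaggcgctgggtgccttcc

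All 4 runs hold at least 1 NF-Y box, and the MVD run holds 2, which start 120 and 85 bases before the transcription start. The SREBF2 run holds the match to the sterol regulatory element 133 bases before the start and an NF-Y box 106 bases before it. A RefSeq window was found for 26 of the 30 members, and ACAT2, FDFT1, SQLE and FASN were not matched. In the 250 bases before the start, CCAAT was found in 17 of 26 members (65.4%) and in 32% of all 35116 promoters. Like STARD4, the genes ACACA, FADS1 and ELOVL6 were lower in at least 3 lines, and their sequence is not shown. CCAAT was found in ACACA and in neither FADS1 nor ELOVL6, so the box in all 4 runs depends on the genes shown. The Sp1 box GGGCGG was found in 23 of 26 members (88.5%) and in 42.6% of all promoters. TCACNCCAC occurred in 1 of 26 members, SREBF2 (3.85%), against 0.883% of all promoters, and CACGTG in 2, SC5DL and INSIG1 (7.69%), against 6.34%. The forkhead motif GTAAACA was found in 1 of 26 members, ELOVL6 (3.85%), and in 2.98% of all promoters. These are matches of letters in a short window, and no binding was measured.

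FOXP1 silencing moved few of these genes far, and the genes that moved did not all move the same way. In HBL-1, 2 of 30 members were called higher, MVD and SREBF2, where 5.73% of all genes were called higher. In OCI-Ly3, MVD was the 1 member called higher, where 2.8% of all genes were. No member was called higher in DB (1.33% of all genes) or K422 (2.34%), and none was called lower in DB (0.829%), K422 (2.1%), HBL-1 (4.17%) or OCI-Ly3 (1.62%). With limma at an unadjusted p under 0.05 and no limit on size, 6 members were higher and 5 lower in DB, 2 and 11 in K422, 11 and 4 in HBL-1, and 7 and 4 in OCI-Ly3. The share of all genes at an unadjusted p was not counted. Counts at an unadjusted p, here and below, therefore cannot be set against all genes. The methods' t-test with the same limits called the same numbers of members, 2 higher in HBL-1, 1 higher in OCI-Ly3 and 0 otherwise. Under normexp background correction with median centring in place of loess, 0 members were called higher in any line by limma. MVD was then 0.34 in HBL-1 and 0.45 in OCI-Ly3 (limma adjusted p = 0.132 and 0.153), and SREBF2 was 0.45 in HBL-1 (limma adjusted p = 0.0368).

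At an adjusted p under 0.05 with no limit on size, a rule added after the values were seen, more members passed. In DB 4 members were higher and 3 lower (6.17% and 5.96% of all genes), in K422 2 and 8 (9.81% and 9.59%), in HBL-1 6 and 2 (16.2% and 15%), and in OCI-Ly3 6 and 4 (9.65% and 9.12%). The members' share was furthest above that of all genes for the lower members in K422, at 26.7%, and it was below that of all genes for the higher members in K422 and the lower members in HBL-1, both at 6.67%. For the mean over the 4 lines, 6 members were higher and 6 lower (19.5% and 18% of all genes), and with the limit of 0.5 there were 0 in either direction (1.47% and 1.11%), where limma at an unadjusted p under 0.05 gave 7 and 6. Counting over lines, 9 members were higher in at least 1 line, 8 were lower in at least 1 line, SREBF1 among both, and 14 passed in no line. Of the 9 higher members, 7 were sterol enzymes and 2 were the SREBF genes. Of the 8 lower members, 5 belonged to fatty acid synthesis, and the others were HMGCS1, SREBF1 and STARD4. How many of all genes passed in at least 1 line was not counted. Neither these counts nor their split can therefore be set against all genes. These counts depended on the test and on the processing. The methods' t-test after Benjamini-Hochberg gave 0 higher and 0 lower in DB, 3 and 9 in K422, 13 and 3 in HBL-1 and 6 and 4 in OCI-Ly3. With normexp and median centring, HBL-1 had 1 higher and 3 lower, K422 had 3 lower, and DB and OCI-Ly3 had 0, and the mean over probes left 3 lower in K422. The 2 arrays of an experiment may share control RNA, and averaging them first, which leaves 3 experiments a line and was added after the values were seen, gave 2 higher and 0 lower in DB (2.33% and 2.2% of all genes), 1 and 4 in K422 (5.69% and 5.48%), 4 and 2 in HBL-1 (12.7% and 11.2%) and 4 and 2 in OCI-Ly3 (5.77% and 4.76%). MVD and SREBF2 in HBL-1 and MVD in OCI-Ly3 were still called with the arrays averaged. The calls lost on averaging were MVK, SREBF2, ACACA, FADS1 and ELOVL6 in DB, HMGCS1, TM7SF2, SREBF1, STARD4 and ELOVL6 in K422, PMVK and DHCR7 in HBL-1, and MVK, SREBF1, STARD4 and FADS1 in OCI-Ly3, with limma adjusted p from 0.0565 to 0.193. In what follows, rose and fell are used of a change at an adjusted p under 0.05 of any size.

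**Figure D1:**
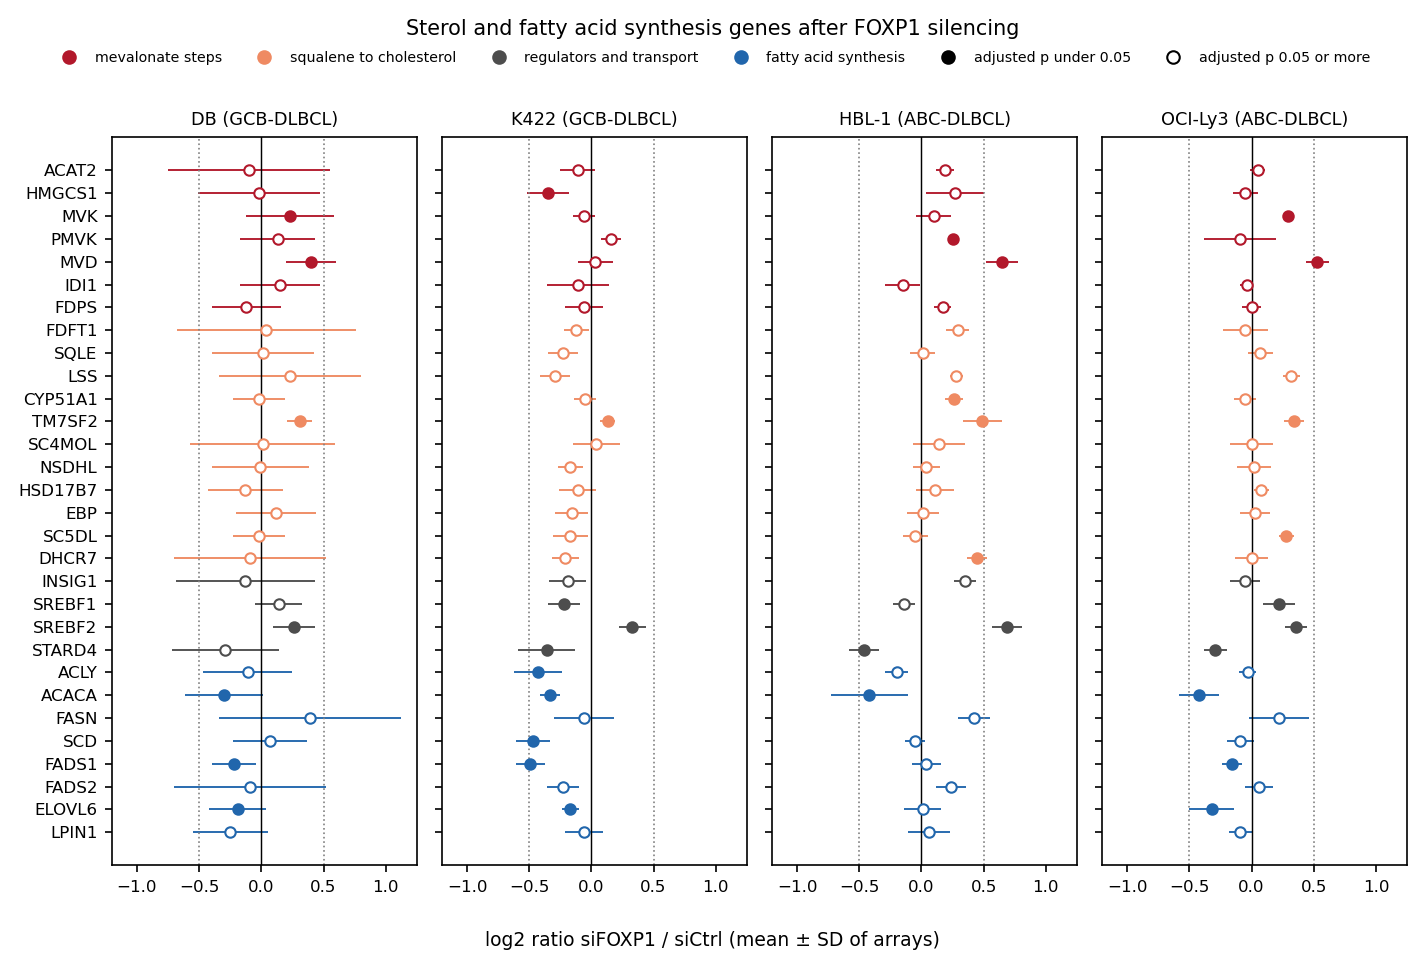
Mean log2 ratio of siFOXP1 over siCtrl (horizontal axis) for the 30 members in the 4 lines, with bars for the SD over arrays, colors for the 4 groups of genes, filled points for an adjusted p under 0.05 and dotted lines at 0.5 in either direction. MVD at 0.65 and SREBF2 at 0.69 in HBL-1 and MVD at 0.53 in OCI-Ly3 are the filled points beyond a dotted line, and the SDs of the sterol genes are wide in DB.

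Among the genes of the mevalonate steps, MVD, which encodes the decarboxylase that makes isopentenyl diphosphate, showed the clearest change. Its probe lies at chr16:87246486-87247239 on the minus strand of hg18, a span longer than the probe, and the files do not say which exons it covers. The 6 log2 ratios of MVD in HBL-1 ran from 0.51 to 0.83 with a median of 0.64, giving a mean of 0.65 ± 0.13 (SD, n = 6 arrays), or 1.57-fold, with a limma adjusted p of 9.48e-08. In OCI-Ly3 they ran from 0.42 to 0.65 with a median of 0.54 and a mean of 0.53 ± 0.09 (n = 6), or 1.45-fold, with a limma adjusted p of 3.01e-06. In DB they ran from 0.04 to 0.64 with a median of 0.43 and a mean of 0.40 ± 0.20 (n = 6, limma adjusted p = 0.000123). MVD therefore rose in 3 lines, and all 18 of those arrays lay above 0. In DB it missed the threshold with the methods' t-test (adjusted p = 0.127), with siFOXP1_308 alone (0.33, limma adjusted p = 0.0547) and under normexp with median centring (0.24, limma adjusted p = 0.735). In K422 the values ran from -0.19 to 0.19 with a mean of 0.03 ± 0.14 (n = 6, limma adjusted p = 0.852), 3 arrays on each side of 0, and did not overlap those of HBL-1 or OCI-Ly3.

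The other 6 mevalonate genes moved less. MVK, mevalonate kinase, rose in DB (0.23 ± 0.35) and OCI-Ly3 (0.29 ± 0.04), and its dimmer probe gave 0.79 in HBL-1, 0.69 in DB, 0.61 in OCI-Ly3 and 0.41 in K422 where the brighter probe gave 0.10, 0.23, 0.29 and -0.06 in the same order. PMVK, the next kinase, rose in HBL-1 with a narrow spread (0.25 ± 0.02) and did not pass elsewhere. HMGCS1, the synthase that forms HMG-CoA, fell in K422 (-0.35 ± 0.17, limma adjusted p = 0.0465 over 6 arrays) and its 2 probes gave close values there, -0.35 and -0.32. ACAT2, IDI1 and FDPS passed in no line, with means between -0.15 and 0.19.

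Among the 11 genes from squalene to cholesterol, TM7SF2, a sterol reductase of the endoplasmic reticulum, rose in all 4 lines and lay above 0 on 24 of 24 arrays. Its log2 ratios ran from 0.21 to 0.43 in DB with a median of 0.29, from 0.04 to 0.20 in K422 with a median of 0.14, from 0.32 to 0.72 in HBL-1 with a median of 0.46, and from 0.27 to 0.45 in OCI-Ly3 with a median of 0.31. The HBL-1 mean was 0.49 ± 0.16 (n = 6), just under the limit of 0.5, with a limma adjusted p of 6.55e-09, and the DB, K422 and OCI-Ly3 means were 0.31, 0.13 and 0.34. The values of K422 were the lowest and its highest array lay below the lowest array of each other line. A second TM7SF2 probe gave 0.67 in HBL-1, 0.34 in OCI-Ly3 and, for the GCB-DLBCL lines, 0.27 in DB and 0.15 in K422. The K422 value turned to -0.21 under normexp with median centring and missed the threshold without replicate 2 of K422 (0.11, limma adjusted p = 0.0822) and with the arrays averaged (0.13, limma adjusted p = 0.0627).

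CYP51A1, the sterol demethylase, rose in HBL-1 (0.26 ± 0.07) and had means of -0.05 to -0.02 in the other lines. DHCR7, the last reductase of the route to cholesterol, rose in HBL-1 (0.45 ± 0.08), where its 6 arrays ran from 0.32 to 0.56. SC5DL (SC5D), a sterol desaturase, rose in OCI-Ly3 (0.28 ± 0.06). Its dimmer probes gave 0.07 and 0.32 there, and the call was lost with the mean over probes (0.22, limma adjusted p = 0.0658). FDFT1, SQLE, LSS, SC4MOL (MSMO1), NSDHL, HSD17B7 and EBP passed in no line. LSS, the cyclase that forms lanosterol, missed the threshold in HBL-1 (0.28 ± 0.05) and OCI-Ly3 (0.32 ± 0.07) although all 12 arrays lay above 0, and its second brightest probe gave 0.64 in HBL-1. In K422, LSS, SQLE, NSDHL, EBP, SC5DL and DHCR7 each lay below 0 on 6 of 6 arrays and none of the 6 passed, with means from -0.29 to -0.16.

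Of the 4 regulators and transporters, SREBF2, which encodes the sterol regulatory element-binding protein that chiefly drives the sterol genes, rose in all 4 lines and lay above 0 on 24 of 24 arrays. Its probe lies at chr22:40632145-40632204 of hg18 on the plus strand. In HBL-1 the log2 ratios ran from 0.57 to 0.92 with a median of 0.68, giving 0.69 ± 0.12 (n = 6), or 1.61-fold, with a limma adjusted p of 4.20e-08. In DB they ran from 0.08 to 0.51 with a median of 0.24 and a mean of 0.26 ± 0.17, in K422 from 0.20 to 0.47 with a median of 0.33 and a mean of 0.33 ± 0.11, and in OCI-Ly3 from 0.27 to 0.48 with a median of 0.33 and a mean of 0.36 ± 0.09 (n = 6 each). Every HBL-1 array lay above all arrays of the other 3 lines, whose ranges overlapped one another. In DB the limma adjusted p was 0.0629 without replicate 1 (0.17) and 0.0565 with the arrays averaged (0.26). The DB call was also lost with siFOXP1_308 alone (limma adjusted p = 0.127), siFOXP1_309 alone (0.0674) and the methods' t-test (adjusted p = 0.18). Under normexp with median centring SREBF2 missed the threshold in DB (0.15), K422 (0.18) and OCI-Ly3 (0.29), with limma adjusted p from 0.434 to 0.919.

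SREBF1, which encodes the paralog that chiefly drives fatty acid synthesis, fell in K422 (-0.22 ± 0.13, below 0 on 6 of 6 arrays) and rose in OCI-Ly3 (0.22 ± 0.13, above 0 on 6 of 6 arrays). Its 2 probes differed in HBL-1, at -0.14 for the brighter and 0.27 for the dimmer. In K422 the dimmer probe gave -0.04, and the call was lost with the mean over probes (-0.13, limma adjusted p = 0.15). In OCI-Ly3 the dimmer probe gave 0.30. INSIG1, which encodes the protein that retains the SREBP complex in the endoplasmic reticulum, passed in no line, and its mean was 0.35 ± 0.09 in HBL-1 (limma adjusted p = 0.0514 over 6 arrays) and between -0.19 and -0.05 in the others.

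STARD4, a carrier that moves cholesterol between membranes, fell in K422, HBL-1 and OCI-Ly3. The log2 ratios in HBL-1 ran from -0.60 to -0.31 with a median of -0.46 and a mean of -0.46 ± 0.12 (n = 6, limma adjusted p = 0.00111). They ran from -0.76 to -0.12 in K422 with a median of -0.31, and from -0.39 to -0.11 in OCI-Ly3 with a median of -0.30, all below 0. In DB they ran from -1.03 to 0.15 with a median of -0.26 and a mean of -0.29 ± 0.43 (n = 6, limma adjusted p = 0.0544), and the ranges of all 4 lines overlapped. The call in OCI-Ly3 (limma adjusted p = 0.043) was lost without any 1 replicate of that line (0.102 to 0.199), and without replicate 1 of DB, replicate 3 of K422 or any replicate of HBL-1 (0.0554 to 0.0644). That in K422 was lost without its replicate 1 (-0.32, limma adjusted p = 0.077) or 3 (-0.33, limma adjusted p = 0.0988).

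**Figure D2:**
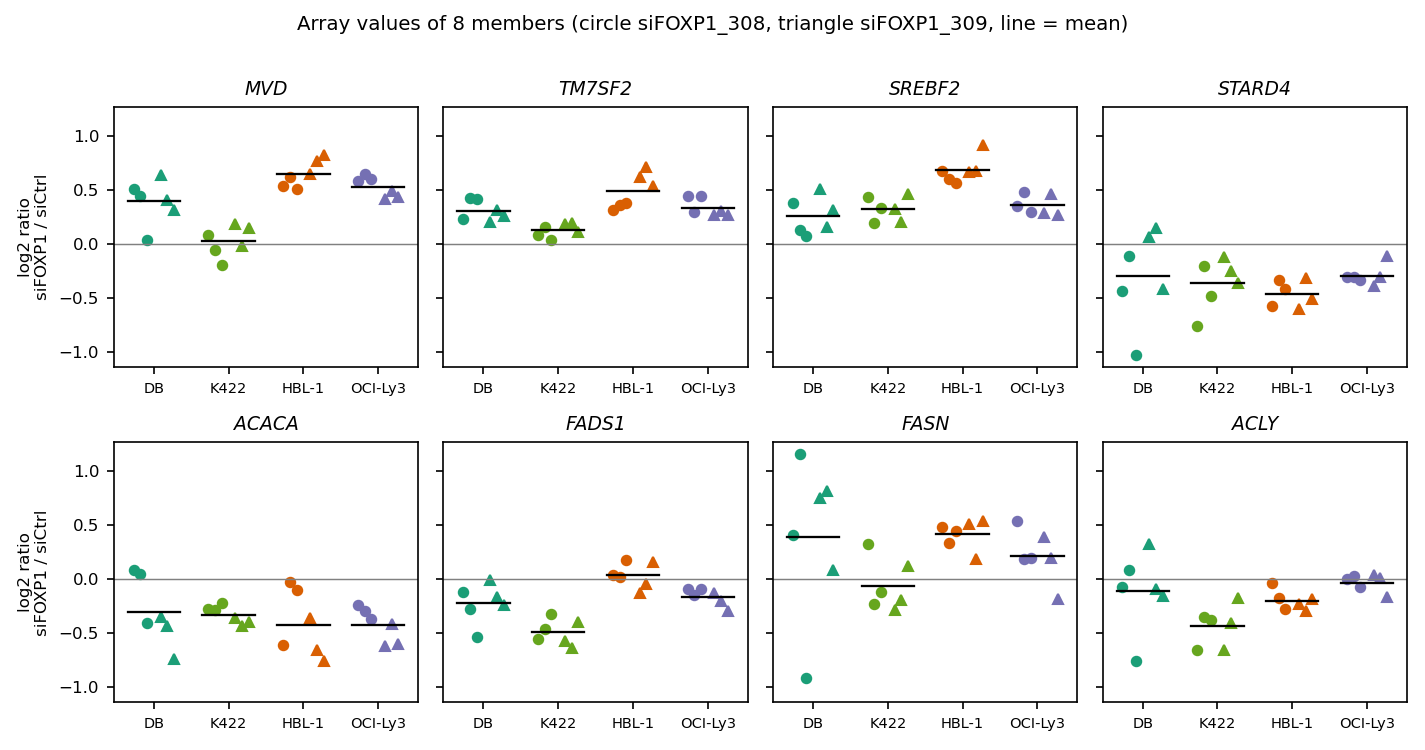
Log2 ratio of siFOXP1 over siCtrl (vertical axis) on each of the 24 arrays for the 8 members described array by array, with circles for siFOXP1_308, triangles for siFOXP1_309 and a black line at the mean of the line. TM7SF2 and SREBF2 lie above 0 on 24 of 24 arrays, MVD is near 0 in K422 alone, and 1 DB array lies far below the other DB arrays for FASN, at -0.91.

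The fatty acid genes that passed the test within a line all fell. ACACA, acetyl-CoA carboxylase, which makes the malonyl-CoA used for chain building, fell in all 4 lines by its brightest probe, at chr17:32761350-32761409 on the minus strand of hg18. The log2 ratios ran from -0.74 to 0.09 in DB with a median of -0.37, from -0.43 to -0.22 in K422 with a median of -0.32, from -0.76 to -0.02 in HBL-1 with a median of -0.48, and from -0.62 to -0.24 in OCI-Ly3 with a median of -0.39. The means were -0.30, -0.33, -0.42 and -0.42, with 22 of 24 arrays below 0. The second ACACA probe, at chr17:32518487-32520044, gave 0.01, -0.20, -0.01 and -0.09 in that order, and with the mean over both probes no line passed, with limma adjusted p from 0.114 to 0.512. Without replicate 3 of DB the DB value was -0.16 (limma adjusted p = 0.189).

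FADS1, a desaturase of polyunsaturated fatty acids, fell in DB, K422 and OCI-Ly3. In K422 its log2 ratios ran from -0.64 to -0.32 with a median of -0.50 and a mean of -0.49 ± 0.12 (n = 6, limma adjusted p = 5.23e-06), and a second probe gave -0.56. In DB they ran from -0.53 to -0.01 with a median of -0.20 and a mean of -0.22 ± 0.18, in OCI-Ly3 from -0.29 to -0.09 with a median of -0.13 and a mean of -0.16 ± 0.08, and in HBL-1 from -0.13 to 0.18 with a median of 0.03 and a mean of 0.04 ± 0.12 (n = 6 each). All K422 arrays lay below all OCI-Ly3 and HBL-1 arrays. The DB call was lost without replicate 3 of DB (-0.14, limma adjusted p = 0.0984). The OCI-Ly3 call (limma adjusted p = 0.043) was lost without any 1 replicate of OCI-Ly3 (0.0867 to 0.194), and without replicate 2 of DB, replicate 1 or 2 of K422, or replicate 1 or 2 of HBL-1 (0.0505 to 0.0593).

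ACLY, the lyase that supplies cytosolic acetyl-CoA, fell in K422, where the log2 ratios ran from -0.65 to -0.17 with a median of -0.39 and a mean of -0.43 ± 0.19 (n = 6, limma adjusted p = 0.00186). In HBL-1 they ran from -0.29 to -0.03 with a median of -0.20 (limma adjusted p = 0.109), in DB from -0.76 to 0.33 with a median of -0.08, and in OCI-Ly3 from -0.16 to 0.04 with a median of 0. The arrays of K422 lay mostly below the others, although their range overlapped that of DB and HBL-1. FASN, fatty acid synthase, passed in no line, while its mean over the 4 lines, 0.24, did pass (limma adjusted p = 0.0351). Its log2 ratios ran from -0.91 to 1.16 in DB with a median of 0.58, from -0.28 to 0.33 in K422 with a median of -0.15, from 0.19 to 0.54 in HBL-1 with a median of 0.47, and from -0.18 to 0.54 in OCI-Ly3 with a median of 0.20. The means were 0.39, -0.06, 0.42 and 0.22, and all 6 HBL-1 arrays lay above 0 (limma adjusted p = 0.0776). FASN passed in HBL-1 at the same mean of 0.42 without replicate 2 or 3 of DB (limma adjusted p = 0.0257 and 0.00326).

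ELOVL6, an elongase of long-chain fatty acids, fell in DB (-0.19 ± 0.23), K422 (-0.17 ± 0.07) and OCI-Ly3 (-0.32 ± 0.18) and had a mean of 0.01 ± 0.15 in HBL-1. The DB call was lost without replicate 3 of DB (-0.15, limma adjusted p = 0.186) or its siFOXP1_308 array (-0.14, limma adjusted p = 0.139), and without replicate 1 of DB (-0.15, limma adjusted p = 0.244). SCD, the desaturase that makes oleate, fell in K422 (-0.47 ± 0.14, below 0 on 6 of 6 arrays), and its 3 dimmer probes gave values from -0.19 to -0.14 there. The SCD probes also differed in HBL-1, from -0.05 for the brightest to 0.47. FADS2 and LPIN1, a desaturase and a phosphatidate phosphatase, passed in no line. K422 was the line in which most fatty acid genes fell, 5 of 8, and all 8 had a mean below 0. With the mean over probes the K422 calls of SCD (-0.24, limma adjusted p = 0.111) and ELOVL6 (-0.28, limma adjusted p = 0.13) were lost. That of ACACA was lost too, and those of ACLY and FADS1 remained.

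The DB arrays varied more for these genes than those of the other lines. The median SD over the 6 arrays was 0.34 for the 18 sterol genes in DB, against 0.207 for the 13263 genes well above background, while in K422, HBL-1 and OCI-Ly3 the sterol genes had median SDs of 0.123, 0.107 and 0.09 against 0.138, 0.132 and 0.123. The array of DB with siFOXP1_308 in replicate 3 stood apart, with a median log2 ratio of -0.66 over the 18 sterol genes and 15 of 18 below 0, while the other 5 DB arrays had medians from -0.05 to 0.31. The levels of the 2 channels were also examined, each scaled to the 75th percentile of its array. In replicate 3 the sterol genes of the siFOXP1_308 channel lay at a median of -0.42 relative to each gene's DB mean, while the siCtrl channel of the same array lay at 0.20 and the siFOXP1_309 channel of the same replicate also at 0.20.

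A second difference ran through both channels of DB. In replicate 1 the sterol genes of the siCtrl channel lay at -0.56 and -0.55 on the 2 arrays and those of the silenced channels at -0.57 and -0.28, whereas in replicate 2 all 4 channels lay between 0.34 and 0.55. All 18 sterol genes had their lowest siCtrl level in replicate 1. FDFT1, squalene synthase, had a scaled log2 level of 3.20 in both siCtrl channels of replicate 1, 4.84 and 4.87 in replicate 2, and 4.93 and 4.94 in replicate 3. The median level of the sterol genes in the siCtrl channel of DB ran from 2.67 to 3.96 over the 6 arrays, a wider range than that of their median log2 ratio on silencing. In the other 3 lines no channel lay more than 0.23 from the line mean. Arrays of replicates 1 and 2 of DB were on the same slide and those of replicate 3 on another, and the part of the slide in these differences was not tested.

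**Figure D3:**
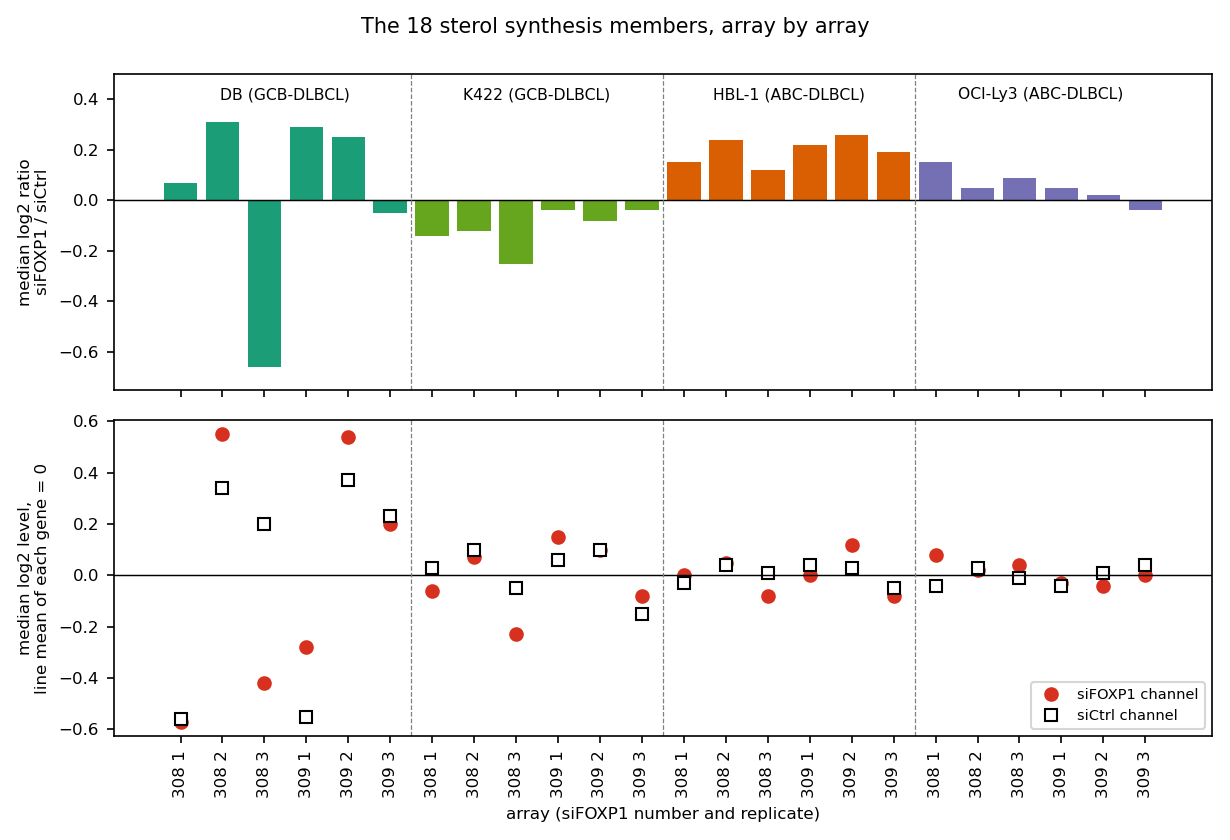
Median over the 18 sterol synthesis genes on each of the 24 arrays, as the log2 ratio of siFOXP1 over siCtrl (upper panel) and as the scaled log2 level of each channel relative to the gene's mean over the line (lower panel). The DB siFOXP1_308 array of replicate 3 reaches -0.66 through its silenced channel at -0.42, and both channels of the DB arrays of replicate 1 lie below 0.

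The DB result rests on those arrays. Without replicate 3 of DB, 15 members were higher and 1 lower at an adjusted p under 0.05 (8.04% and 7.9% of all genes), against 4 and 3 with it, and the median of the members in DB was 0.22 against -0.01. FASN was then 0.78 (limma adjusted p = 0.000486), LSS 0.54, MVD 0.50 and FDFT1 0.43, while LPIN1 was the 1 member lower at -0.41. Leaving out the siFOXP1_308 array of replicate 3 alone gave 10 higher and 2 lower (7.73% and 7.65%). Because the spread of a gene was estimated over all lines, the other lines changed too, with no change in their ratios. Without the whole replicate there were 16 members lower in K422 (11.6% of all genes) and 14 higher in HBL-1 (17.7%), and without the single array 13 (11.3%) and 14 (17.5%). Without replicate 1 of DB, 2 members were higher and 3 lower in DB. In K422 the 8 lower members became 4 without replicate 3 of K422. Leaving out the single array was chosen after the values had been seen.

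As a group, the members lay below 0 in K422 and above 0 in HBL-1. The median over the 30 members was -0.16 in K422, 0.13 in HBL-1 and close to 0 in the others (-0.01 in DB and 0 in OCI-Ly3), where the median of all genes was 0 in each line. In K422, 25 of 30 members had a mean below 0, and in HBL-1 23 of 30 lay above it. The sterol genes taken alone had array medians from -0.25 to -0.04 on the 6 arrays of K422, from 0.12 to 0.26 on those of HBL-1 and from -0.04 to 0.15 on those of OCI-Ly3. The arrays of K422 and HBL-1 did not overlap. Under normexp with median centring the member median of HBL-1 turned to -0.15 and that of K422 was -0.36.

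The design sets ABC-DLBCL against GCB-DLBCL to ask whether silencing acts differently in the subtypes. At the limit of 0.5 no member was higher (1.4% of all genes) or lower (0.866%) in the ABC-DLBCL response. In limma at an unadjusted p under 0.05, 13 members were higher and 0 lower, and the share of all genes was not counted. With no limit on size, 5 members were higher at an adjusted p under 0.05 (4.52% of all genes) and 0 lower (3.77%). They were MVD by 0.38 (0.59 in ABC-DLBCL against 0.21 in GCB-DLBCL), FADS1 by 0.30 (-0.06 against -0.35), SREBF2 by 0.23 (0.52 against 0.30), SC5DL by 0.21 (0.11 against -0.09) and TM7SF2 by 0.19 (0.42 against 0.22), with limma adjusted p from 0.000206 for MVD to 0.0335 for SC5DL. The spread in this test is that of arrays within a line, and it does not measure how lines of a subtype differ. SC5DL was -0.05 in HBL-1 and -0.02 in DB. For the others both ABC-DLBCL lines lay above both GCB-DLBCL lines. The gap was small for SREBF2 (0.36 in OCI-Ly3, 0.33 in K422) and TM7SF2 (0.34 in OCI-Ly3, 0.31 in DB). The 5 became 12 without replicate 1 of DB, 8 without replicate 3 of DB and 9 without the siFOXP1_308 array of that replicate. They became 4 with the replicate block (3.12% of all genes) or the mean over probes. They became 2 with the arrays of an experiment averaged (1.81% of all genes) or with siFOXP1_309 alone. With siFOXP1_308 alone there was 1, and under normexp with median centring 0. Where no share of all genes is given, it was not counted for that setting. The mean over probes ended the call of SC5DL (0.16, limma adjusted p = 0.264). MVD and TM7SF2 were the 2 that passed with the arrays averaged.

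The pairs of lines scanned together were also compared. Between HBL-1 and K422, scanned together, 9 members were higher in HBL-1 (5.32% of all genes) and 0 lower (4.6%, or 2.03% with the limit of 0.5), with 14 higher and 0 lower in limma at an unadjusted p under 0.05. Of the 9, 5 passed 0.5, where 2.31% of all genes did. The 5 were DHCR7 (0.66), MVD (0.63), HMGCS1 (0.62), LSS (0.57) and FADS1 (0.53), and the others were SCD (0.42), TM7SF2 (0.36), SREBF2 (0.36) and CYP51A1 (0.31). Between OCI-Ly3 and DB, the other session, 0 members passed in limma (1.86% of all genes higher and 0.975% lower, or 0.965% and 0.461% with the limit of 0.5), and 1 had an unadjusted p under 0.05. Each subtype holds 2 lines, and a difference between subtypes and one between lines cannot be told apart in HBL-1 and K422.

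**Figure D4:**
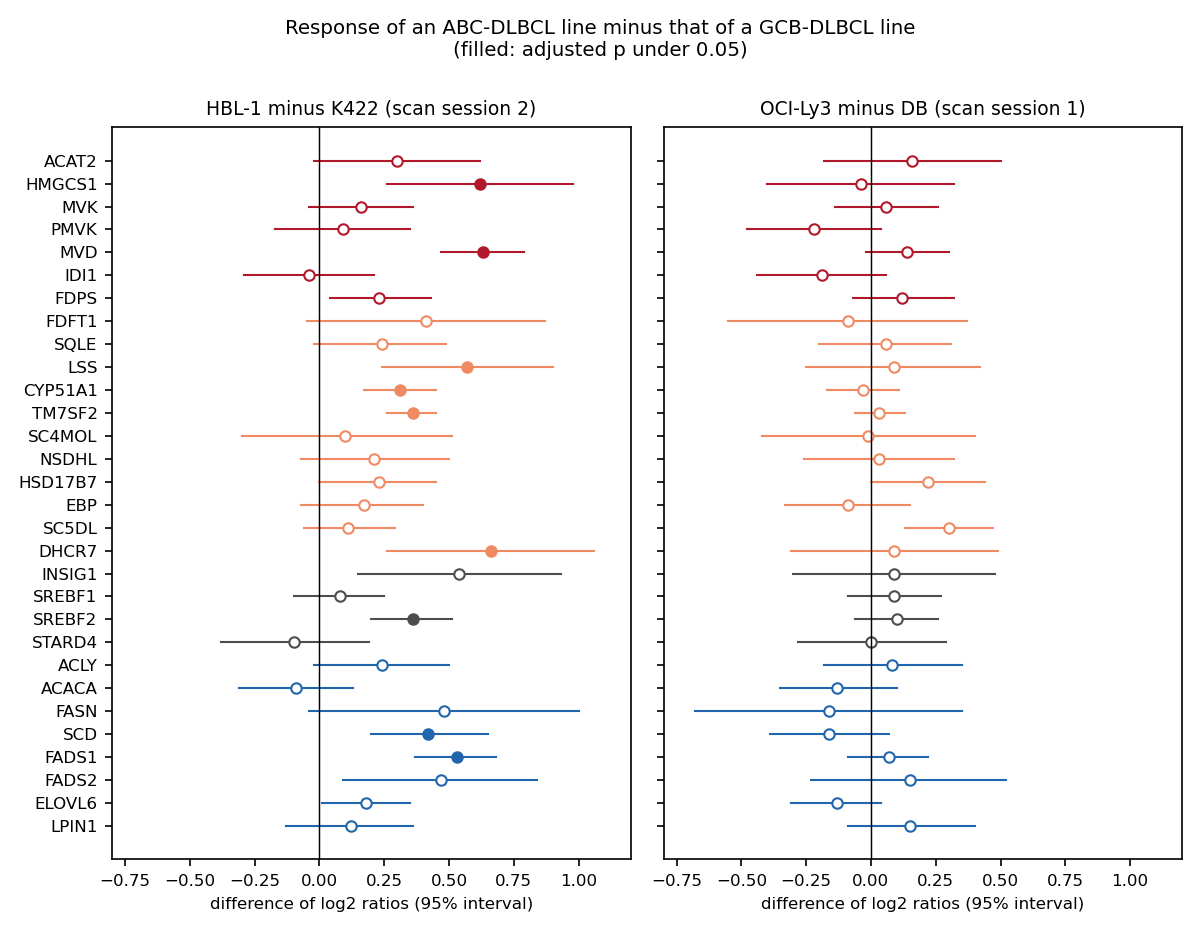
Difference of log2 ratios (horizontal axis, bars for the 95% interval from limma) for the 30 members, HBL-1 minus K422 on the left and OCI-Ly3 minus DB on the right, with filled points for an adjusted p under 0.05. In the left panel 9 points are filled and all are above 0, led by DHCR7 at 0.66, and in the right panel 0 are filled.

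The 2 siRNAs were compared within each line, and they lowered FOXP1 unequally. FOXP1 itself ran from -1.61 to -0.95 with siFOXP1_308 and from -2.71 to -2.69 with siFOXP1_309 in DB. In K422 the ranges were -0.96 to -0.83 and -1.80 to -1.70, and in HBL-1 -1.57 to -1.09 and -2.50 to -1.93. In OCI-Ly3 they were -1.56 to -1.39 and -2.51 to -2.34. The comparison therefore sets a weaker against a stronger silencing in every line. No member differed between siFOXP1_309 and siFOXP1_308 in any of the 4 lines in limma, where 0.302% of all genes were called in DB, 0.192% in OCI-Ly3, 0.173% in HBL-1 and 0.159% in K422 (0.395%, 0.216%, 0.216% and 0.189% with no limit on size). At an unadjusted p under 0.05, 9 members differed in DB, 2 in HBL-1 and 0 in both K422 and OCI-Ly3. The greatest difference in size was that of ACAT2 in DB, 0.74 ± 0.24 (SE, limma adjusted p = 0.24), and the siFOXP1_308 arrays of DB include the array that stood apart. The 2 siRNAs were set against control RNA that may be the same extract, so they are not independent of each other.

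Control levels were also compared between lines before silencing, where many genes of the array differed. In the control channel, 6 members were higher in OCI-Ly3 than in DB at an adjusted p under 0.05 and a log2 difference of at least 1 (14.1% of all genes), and 0 were lower (11.7%), with 2 lower in limma at an unadjusted p under 0.05. The 6 were SC4MOL by 1.89 (3.7-fold), LPIN1 by 1.81, STARD4 by 1.73, ELOVL6 by 1.61, NSDHL by 1.08 and EBP by 1.01. Without replicate 1 of DB, in which the sterol genes were low, 4 members were called, and the share of all genes was not counted there. The share of members called higher was 20% against 14.1% of all genes, and that of members called lower was 0% against 11.7%. Whether the members differ from all genes in this was not tested.

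In HBL-1 5 members were higher than in K422 (16.7%, against 12.4% of all genes) and 5 were lower (16.7%, against 13.4%). These shares are near those of all genes. The higher members were LPIN1 by 3.08 (8.44-fold), SC5DL by 2.10 (4.29-fold), LSS by 1.71, MVK by 1.17 and STARD4 by 1.03. The lower members were ACACA (-1.64), TM7SF2 (-1.52), ELOVL6 (-1.44), HMGCS1 (-1.29) and FADS1 (-1.02). The control level of TM7SF2 was thus 2.86-fold higher in K422 than in HBL-1, while its log2 ratio on silencing was 0.36 higher in HBL-1.

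ELOVL6 and LPIN1 differed most over the 4 lines. ELOVL6 had scaled log2 levels of 1.84 ± 0.20 in K422, 0.40 ± 0.02 in HBL-1, -1.36 ± 0.05 in OCI-Ly3 and -2.97 ± 0.18 in DB (SD, n = 3 experiments), and no 2 lines overlapped. LPIN1 had 1.35 ± 0.09 in OCI-Ly3, 1.11 ± 0.07 in HBL-1, -0.46 ± 0.46 in DB and, at the low end, -1.97 ± 0.78 in K422, again with no overlap between lines. SREBF2 levels lay closer together, at 3.55 ± 0.09 in OCI-Ly3, 3.08 ± 0.05 in HBL-1, 2.93 ± 0.21 in DB and, at the low end, 2.64 ± 0.25 in K422, where DB overlapped both HBL-1 and K422.

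**Figure D5:**
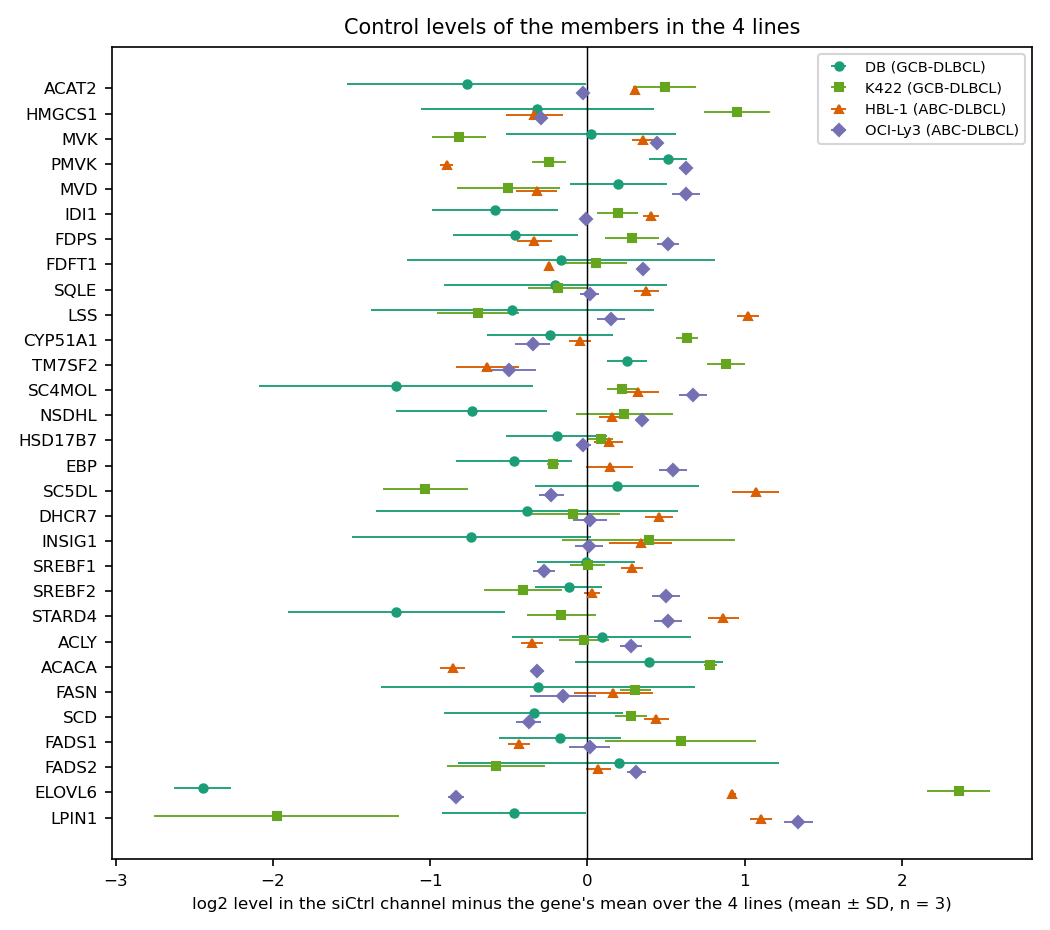
Scaled log2 level of each member in the control channel (horizontal axis) relative to the gene's mean over the 4 lines, as mean and SD of 3 experiments, with a color and marker for each line. ELOVL6 and LPIN1 spread most, K422 is highest for ELOVL6 and lowest for LPIN1, and the DB bars are wide for most sterol genes.

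Genes of the same routes outside the 30 were examined in the same way, beside the 5.73% of all genes called higher in HBL-1 and the 2.8% in OCI-Ly3. Of 17 other sterol genes, 1 was called higher in HBL-1, NR1H2, an oxysterol receptor (0.52 ± 0.09), and 1 in OCI-Ly3, the cholesterol exporter ABCA1, which was at least 2.47-fold higher as the control channel reached well above background on 0 of 6 arrays (limma adjusted p = 1.50e-05). Of 21 other fatty acid genes, FADS3 was called higher in HBL-1 (1.27 ± 0.22) and LPIN2 (0.52 ± 0.08), ACACB and ME1 in OCI-Ly3. For ACACB in OCI-Ly3 the bound equalled the plain log2 ratio, 0.74 ± 0.65 (1.67-fold), and was not a lower limit. That ratio was above 0 on 5 arrays and below 0 on 1. The silenced signal of ACACB cleared the background on 4 arrays and the control signal on 0. ME1 was well above background in neither channel. Of 9 genes of fatty acid oxidation, ACADVL, the very long-chain acyl-CoA dehydrogenase, was called higher in HBL-1 (0.51 ± 0.09). None of these 3 lists had a gene called lower in any line. A bound is the mean of the bright channel over the higher of the dim signal and the lowest signal well above background, after quantile scaling of the arrays, and can carry dye bias.

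At an adjusted p alone, HADHB, a subunit of the mitochondrial trifunctional protein, and ACADS, the short-chain acyl-CoA dehydrogenase, rose in all 4 lines, HADHB by 0.18 to 0.24 and ACADS by 0.11 to 0.43. Counts of the oxidation genes at this rule were 2 higher and 0 lower of 9 in DB (6.17% and 5.96% of all genes), 4 and 1 in K422 (9.81% and 9.59%), 4 and 0 in HBL-1 (16.2% and 15%), and 3 and 1 in OCI-Ly3 (9.65% and 9.12%). Among the other sterol genes the counts were 2 and 3 of 17 in DB, 1 and 5 in K422, 4 and 5 in HBL-1, and 2 and 2 in OCI-Ly3. Among the other fatty acid genes they were 3 and 2 of 21 in DB, 4 and 4 in K422, 6 and 2 in HBL-1, and 7 and 1 in OCI-Ly3.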

How the data were processed

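FOXP1 was silenced in 4 DLBCL lines and RNA was hybridized to 24 2-color Agilent arrays, 6 a line. The authors deposited Feature Extraction output (version 10.5.1.1 for DB and OCI-Ly3, 10.7.3.1 for K422 and HBL-1, per the file headers), with an intensity for each channel and a log10 ratio after linear and loess normalization. The authors also deposited a matrix of log2 values. The log10 ratio, red over green, was converted to log2 of green over red. Of 45015 spots, 1639 controls and outlier spots were left out, and spots of a probe were averaged. Genes carry the names in the deposited output.

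R 4.3.3 with limma 3.58.1 fitted 8 means of line and siRNA over all arrays. Control levels are log2 Cy5 signals minus the 75th percentile of the array, averaged to 3 experiments a line. The fit was tested on simulated data. The members and lists were chosen with earlier results of these data known. Members given array by array are those called in a line, filled to 8 by mean size over lines. Alternatives are in the closing section. The number of arrays limits the precision.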

Additional observations from a re-analysis of the deposited data

Results flagged for a closer look

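In 44 sets of 6 arrays (8 members and 3 group medians, each in the 4 lines), 3 held an array far from the others, where chance gives about 2.2. SREBF2 in HBL-1 was 0.92 on the siFOXP1_309 array of replicate 3 and between 0.57 and 0.68 on the others. STARD4 in OCI-Ly3 was -0.11 on the siFOXP1_309 array of replicate 3 and between -0.39 and -0.30 on the others. The median of the 18 sterol genes in DB was -0.66 on the siFOXP1_308 array of replicate 3 and between -0.05 and 0.31 on the others.

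In limma over 24 arrays the mean log2 ratio of the 2 ABC-DLBCL lines was above that of the 2 GCB-DLBCL lines for 5 members. They were MVD (0.38), FADS1 (0.30), SREBF2 (0.23), SC5DL (0.21) and TM7SF2 (0.19). This was a test of the difference itself, with the spread of arrays within a line. It does not measure how lines of a subtype differ. Of these 5, 2 passed with the arrays of an experiment averaged or with siFOXP1_309 alone, 1 with siFOXP1_308 alone and 0 under normexp with median centring, and between OCI-Ly3 and DB 0 members passed.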

How the results depend on the processing

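Each of 432 summary values was recomputed under an alternative, and 397 stayed within 1.5 times for a count or 1 SD for a median. The 397 include counts of 0 that stayed 0. They also include medians of a line that cannot change when a replicate of another line is left out. The figure is therefore no measure of how firm the results are. With the adjusted p alone and the main processing, K422 had 2 members higher and 8 lower, OCI-Ly3 had 6 and 4, DB had 4 and 3, HBL-1 had 6 and 2, and 5 were higher in the ABC-DLBCL response. All other counts of members in this paragraph and the next are of called members, which must also pass the limit on size, unless the adjusted p alone is named. Normexp with median centring, which leaves dye effects that vary with brightness in place, gave 0 members higher in either OCI-Ly3 or HBL-1, 3 lower in HBL-1 and 2 lower in K422, with member medians of -0.36 in K422, -0.15 in HBL-1 and -0.08 for the line OCI-Ly3, and TM7SF2 turned to -0.21 in K422 (limma adjusted p = 0.447). The mean over probes gave 1 member lower in K422, a median of 0.16 in HBL-1 and 3 members lower in the siCtrl channel of HBL-1 than of K422. SiFOXP1_308 alone gave 1 lower in K422. SiFOXP1_309 alone gave 1 called lower in each of the 4 lines, 0 called higher in OCI-Ly3 and a median of 0.17 in HBL-1. At the adjusted p alone it gave 4 higher and 2 lower in OCI-Ly3. Normexp with quantile normalization gave 3 members higher in the siCtrl channel of OCI-Ly3 than of DB. Without the siFOXP1_308 array of DB replicate 3, 1 member was called higher in DB, where 10 were higher at the adjusted p alone. Apart from these dependences the cause was not tested.

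Leaving out 1 replicate at a time gave 0 to 3 members higher in DB (3 without DB replicate 3), 0 to 2 lower in K422 (1 without its replicate 1 and 2 without its replicate 3), 2 to 3 higher and 0 to 1 lower in HBL-1 (1 lower without its replicate 2), 0 to 1 differing between siRNAs (1 without DB replicate 2), 4 to 7 higher in the siCtrl channel of OCI-Ly3 than of DB, and member medians from -0.10 to 0.22 in DB and from 0.09 to 0.16 in HBL-1.

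Arrays of the 2 siRNAs with the same line and replicate number correlated at 0.0468 to 0.284 in their deviations over all genes, and at 0.0358 to 0.87 over the members. They were above 0.1 over all genes in the 3 DB pairs and not in every pair elsewhere. On that ground the main fit did not use the numbers for pairing, although each array correlated best with its own number. The main fit counts the arrays as independent, so its adjusted p may be too small where 2 arrays share an experiment. Averaging the arrays of an experiment, described above, ended calls at the adjusted p alone in every line. With the replicate number as a block, 2 members were called higher in HBL-1 and 1 in OCI-Ly3, as without it. At the adjusted p alone the block ended the calls of MVK and ELOVL6 in DB, HMGCS1 and ELOVL6 in K422, PMVK in HBL-1, STARD4 and FADS1 in OCI-Ly3 and SC5DL between subtypes, with limma adjusted p from 0.0542 to 0.1.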
